A study of Mus musculus with 47 samples.

Results

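The 14 lymphomas labelled Suv39h1 WT were grouped by their own Cdkn2a level. They were ranked by the log2 level of the brightest Cdkn2a probe set on the untreated (native) array, and the 7 highest were compared with the 7 lowest. These 14 lymphomas gave 28 of the 47 arrays of the series, which come from 22 cultures. All cells were primary B cell lymphoma cells from lymph nodes of mice with a Myc transgene under the Eµ immunoglobulin heavy chain enhancer, which is active in the B lineage. All had also been transduced with a Bcl2 retrovirus, selected with puromycin for 48 h and kept on NIH 3T3 fibroblasts irradiated with 20 Gy. Each lymphoma was measured native and after 5 days with 0.05 µg/ml Adriamycin (ADR, doxorubicin), a drug that breaks DNA. Both groups therefore share genotype, Bcl2, feeder cells and dose, and were separated by rank alone. The remaining genotypes were Suv39h1- (5 lymphomas, native and ADR) and Suv39h1ER (3 cultures, native, ADR, and ADR with 4-hydroxytamoxifen, 4OHT), in which the H3K9 methyltransferase is absent or fused to an estrogen receptor domain. The WT lymphomas are given separate numbers in the labels, but separate mice are not stated, so p-values measure the spread between these samples. The number 5043 labels both a WT lymphoma and a Suv39h1ER culture, and 4936 both a Suv39h1- lymphoma and a Suv39h1ER culture. Whether these share an origin is not stated.

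Cdkn2a encodes 2 unrelated tumour suppressors from alternative first exons. p16Ink4a inhibits the cyclin D kinases Cdk4 and Cdk6, which keeps the retinoblastoma protein active. p19Arf binds Mdm2, the ubiquitin ligase that degrades p53, and so lets p53 build up. In Eµ-myc lymphomas the Arf, Mdm2 and p53 axis is often disabled, and cells that have lost p53 function are known to carry high Cdkn2a transcript because p53 no longer represses it. The comparison asks whether lymphomas with more Cdkn2a transcript differ in p53 output. The readouts were Cdkn1a (the kinase inhibitor p21), Mdm2 (itself a p53 target) and Phlda3 (an Akt inhibitor induced by p53).

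The label of a high group held for 2 of its 7 lymphomas. Native Cdkn2a was 7.31 in lymphoma 403 and 6.07 in lymphoma 3594, where 79.4% and 69.5% of all probe sets were dimmer. The other 5 of the high group were 5043 (4.45), 5766 (4.39), 2581 (4.39), 5560 (4.32) and 9583 (4.28), where 48.2% to 50.7% of probe sets were dimmer. The low group held 7050 (4.23), 9584 (4.07), 6054 (3.85), 1570 (3.81), 1467 (3.77), 2949 (3.74) and 3769 (3.33). The median of all probe sets on the native arrays lay between 4.35 and 4.43. The members just inside and just outside the boundary, 9583 and 7050, differed by 0.05, and the step below lymphoma 3594 was 1.63. Ranks 3 to 14 spanned 1.12 near the array median. Thus 403 and 3594 stand apart, and the other 12 form a narrow range at a level typical of a median probe set. The group means were 5.03 ± 1.19 and 3.83 ± 0.28 (SD, n = 7 each). These values chose the groups and carry no test. Below, group means are given ± SD (n = 7) and differences, high minus low on the log2 scale, ± SE.

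**Figure D1:**
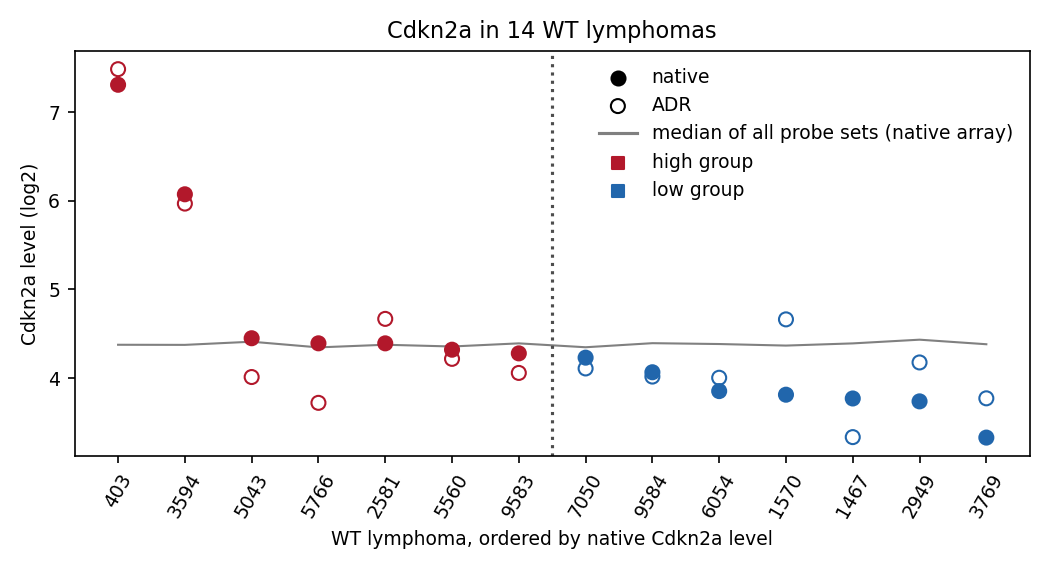
Cdkn2a level (log2) of each of the 14 WT lymphomas on the native array (filled) and on the ADR array (open), ordered by native level. The grey line is the median of all probe sets on each native array, the dotted line separates the groups, and lymphomas 403 and 3594 (native 7.31 and 6.07) lie above all others.

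Cdkn2a on the ADR arrays was not used for the ranking. It was 7.49 in 403, 5.97 in 3594 and 3.72 to 4.67 in the other 5 of the high group, and 3.33 to 4.66 in the low group. The pair 403 and 3594 was again above all others, while the remaining lymphomas of both groups overlapped. The ADR means were 4.88 ± 1.37 and 4.01 ± 0.40. The change from native to ADR averaged -0.16 ± 0.33 in the high group and 0.18 ± 0.43 in the low group. The low group began lower by construction.

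The gene is on the minus strand of mouse chromosome 4 at 89274473 to 89294619 (GRCm38.p6), between Mtap and Cdkn2b. It is represented by a single probe set, and whether that reads the p16Ink4a or the Arf transcript was not determined. The 250 bases before both starts of Cdkn2a, the upstream start of Cdkn1a and the start of Mdm2 are shown because the groups and readouts turn on these genes. Sequences are from RefSeq (GRCm38.p6), 5′ to 3′ on the gene's strand. Capitals mark a match to an E2F site (TTTCCCGC, TTTCGCGC, TTTGCCGC or TTTGGCGC, both strands) in Cdkn2a, or to a p53 half-site in the others.
Cdkn2a, upstream start used by Arf, chr4:89294620-89294869, minus strand: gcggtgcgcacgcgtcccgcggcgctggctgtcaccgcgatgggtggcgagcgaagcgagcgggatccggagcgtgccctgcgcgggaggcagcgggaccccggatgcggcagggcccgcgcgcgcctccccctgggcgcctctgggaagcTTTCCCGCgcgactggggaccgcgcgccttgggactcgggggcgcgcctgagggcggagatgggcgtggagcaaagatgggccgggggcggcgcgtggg
Cdkn2a, downstream start used by p16Ink4a, chr4:89282193-89282442, minus strand: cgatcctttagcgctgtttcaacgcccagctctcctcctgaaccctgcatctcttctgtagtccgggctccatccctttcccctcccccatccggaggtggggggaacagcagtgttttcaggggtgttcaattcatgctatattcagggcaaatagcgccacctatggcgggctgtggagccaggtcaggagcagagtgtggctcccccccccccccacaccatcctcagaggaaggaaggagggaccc
Cdkn1a, upstream start, chr17:29090729-29090978, plus strand: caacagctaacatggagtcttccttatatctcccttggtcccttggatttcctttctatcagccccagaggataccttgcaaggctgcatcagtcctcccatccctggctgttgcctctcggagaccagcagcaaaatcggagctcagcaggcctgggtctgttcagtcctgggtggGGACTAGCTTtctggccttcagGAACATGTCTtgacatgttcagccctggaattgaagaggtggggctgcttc
Mdm2, chr10:117710759-117711008, minus strand: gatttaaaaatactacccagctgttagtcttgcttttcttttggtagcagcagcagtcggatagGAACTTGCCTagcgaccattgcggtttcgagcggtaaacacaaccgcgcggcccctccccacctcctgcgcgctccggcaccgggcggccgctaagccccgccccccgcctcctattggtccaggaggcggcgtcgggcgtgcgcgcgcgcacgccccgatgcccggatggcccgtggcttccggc

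The window before the Arf start held 40 CpG dinucleotides at 78.4% GC, and that before the p16Ink4a start held 7 at 60% GC. The Arf window had 1 E2F match, which 1.86% of 32817 windows of the same length in the RefSeq table also held. Cdkn1a had 2 p53 half-sites in its upstream window, and Mdm2 had 1. Such a half-site was present in 7.12% of windows. Neither the Phlda3 window, the window before the other Cdkn1a start (not shown) nor the Cdkn2a windows held one. An E-box (CACGTG), the site Myc can bind, was in 6.02% of windows and in none of these. A match is a description of letters and not a measured site.

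No gene differed between the groups after adjustment, on native arrays, on ADR arrays or in the response. The response is the ADR minus native difference within each lymphoma. limma with Benjamini-Hochberg adjustment called 0 of 18193 genes (0%) in each comparison. Unadjusted p was under 0.05 for 601 genes native (3.3%), 945 under ADR (5.19%) and 1084 in the response (5.96%). These shares are at or near the 5% that the threshold alone gives. The smallest adjusted p-values were 0.9998, 0.876 and 0.809. The native and response comparisons share the native arrays, so their values are not independent. The groups did not overlap for 4, 9 and 14 genes respectively (0.022%, 0.049% and 0.077% of all genes).

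Cdkn1a, the cell cycle arrest effector of p53, was bright in every lymphoma. Native levels ran from 8.97 (2581) through a median of 10.17 to 11.04 (5043) in the high group and from 9.65 (1570) through 10.85 to 12 (2949) in the low group. Under ADR they were 11.05, 11.59 and 12.15 against 11.07, 11.60 and 12.19 (lowest, median, highest). The groups overlapped on both arrays and the ADR ranges nearly coincided. The high minus low difference was -0.46 native (95% interval -1.25 to 0.34), -0.00 under ADR (-0.41 to 0.41) and 0.45 in the response (-0.37 to 1.28). The 2-sided exact permutation p over all 3432 assignments of 7 and 7 was 0.290, 0.992 and 0.302.

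Mdm2 gave smaller differences. Native levels ran from 8.44 (2581) through 9.08 to 9.35 (5766) in the high group and from 8.49 (1570) through 8.94 to 10.40 (2949) in the low group. Under ADR they were 9.91, 10.35 and 10.77 against 9.79, 9.89 and 11.56. The low group was the wider on both arrays and enclosed nearly all of the high group. Differences were -0.18 native (-0.74 to 0.39), -0.02 under ADR (-0.58 to 0.54) and 0.16 in the response (-0.77 to 1.09), with exact permutation p of 0.565, 0.951 and 0.734.

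Phlda3 had the largest response difference of the readouts. Native levels ran from 6.49 (2581) through 7.62 to 8.43 (5766) in the high group and from 7.06 (3769) through 7.83 to 9.33 (2949) in the low group. Under ADR they were 9.33, 9.47 and 10.08 against 8.06, 9.48 and 10.02. The differences were -0.44 native (-1.21 to 0.32), 0.28 under ADR (-0.28 to 0.84) and 0.72 in the response (-0.33 to 1.78). The exact permutation p was 0.278, 0.363 and 0.202. Adjusted over the 9 tests of the 3 readouts, the exact p-values ran from 0.652 to 0.992. The intervals use limma's SE and degrees of freedom, and leave room for differences of over 1 log2 unit in the responses.

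The Mdm2 and Phlda3 responses spread more widely in the low group. Phlda3 changed by 1.04 to 2.94 in the high group and by -0.12 to 2.88 in the low group. The Cdkn1a ranges were more alike, 0.54 to 2.62 and -0.03 to 2.54. All 3 readouts were higher under ADR in 7 of 7 high lymphomas. Mdm2 changed by 0.93 to 1.69 there (1.34 ± 0.28). In the low group, Cdkn1a was higher under ADR in 6 of 7, Mdm2 and Phlda3 in 5 of 7, and Mdm2 changed by 1.19 ± 1.23. In 2949 the changes of Cdkn1a, Mdm2 and Phlda3 were -0.03, -0.52 and -0.09. In 6054 they were 0.33, 0.00 and 0.33, and in 7050 they were 0.22, 0.77 and -0.12. Of these, 2949 had the highest native level of all 14 lymphomas for each readout, and 6054 the next highest of the low group. The largest Mdm2 changes, 2.82 (9584), 2.26 (3769) and 2.02 (1570), were also in the low group. Lymphomas 2949 and 6054 have arrays like those of 5043 and 5766 in the high group (below). In the high group, 5043 and 5766 had the smallest changes of Cdkn1a (0.54 and 0.86) and of Phlda3 (1.495 and 1.04).

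**Figure D2:**
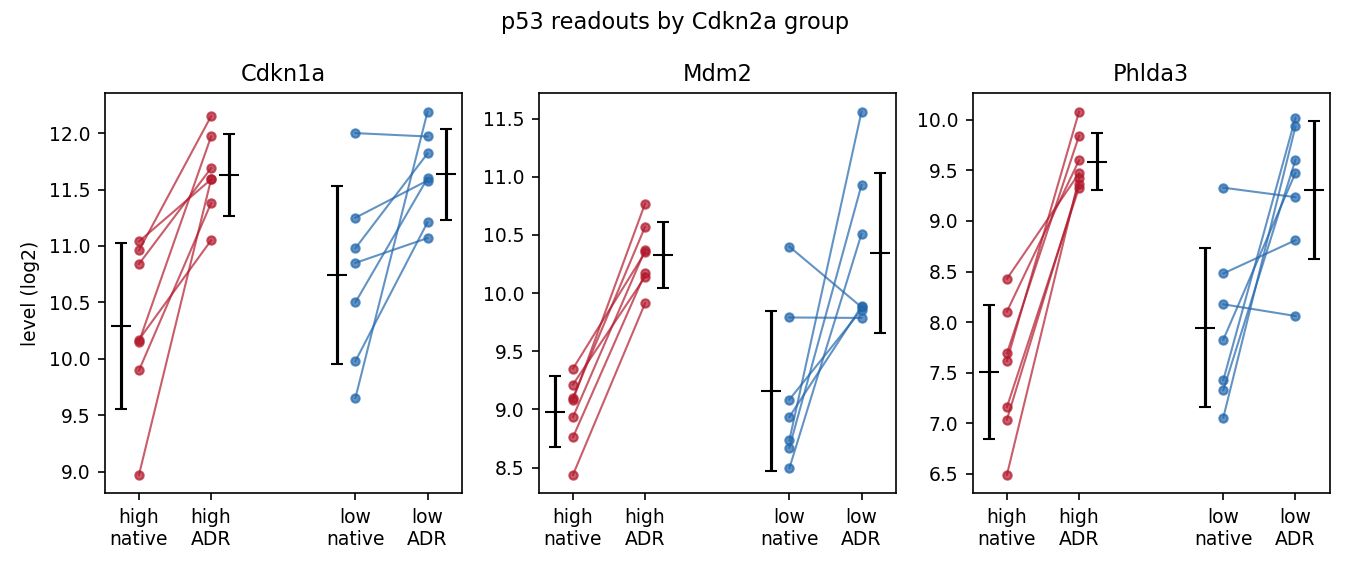
Levels (log2) of Cdkn1a, Mdm2 and Phlda3 in each WT lymphoma, native and ADR points of a lymphoma joined by a line. Horizontal marks and bars are means and SD (n = 7), and every line in the high group points upward while the low group includes the flat or falling lines of 2949.

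The brightest probe set represents each gene. Of the dimmer ones, the second Cdkn1a probe set gave -0.62, -0.24 and 0.38 for native, ADR and response, and the second Mdm2 probe set gave -0.31, 0.19 and 0.50. Their native and response signs equal those of the brightest ones, and the ADR sign of Mdm2 does not.

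The wider p53 target list had 39 measured members of 42. Its median native difference was -0.16, with 32 of 39 genes lower in the high group, beside a median of 0.00 over all genes. Under ADR the list median was 0.02, and in the response it was 0.21, with 28 of 39 higher, beside -0.01 over all genes for both. No member was called (0% of all genes), and 1, 2 and 2 members had unadjusted p under 0.05 in the 3 comparisons, against 3.3%, 5.19% and 5.96% of all genes. Without the alike lymphomas 2949, 5043, 5766 and 6054 (below), the response median was 0.04, with 21 of 39 higher.

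Within each group the ADR response itself was clear. In the high group 15 of 39 p53 targets rose and 1 fell, and 12.4% of all genes rose and 10.7% fell. In the low group 7 rose and 1 fell, and 5.95% of all genes rose and 6.17% fell. All 7 that rose in the low group also rose in the high group. Ak1 (adenylate kinase) rose by 3.02 and 1.61 in the high and low group, and Cd80 (a costimulatory ligand) rose by 1.5 and 1.29. Plk3 (a stress kinase) rose by 1.03 and 0.81. Ddb2 (a UV damage sensor) fell in both, by 0.88 and 1.48. Ccng1 (cyclin G1), Fas (a death receptor), Aen (an apoptotic nuclease) and Sesn2 (a sestrin) passed in the high group alone, at 1.14, 1.34, 0.69 and 0.91, where the low group had 0.63, 0.61, 0.47 and 0.39. The difference between groups was tested and passed for none of them.

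Eda2r, a p53-induced receptor for ectodysplasin A2, had the smallest p of the list. Native levels were 3.11, 3.90 and 4.24 (lowest, median, highest) in the high group and 3.02, 3.59 and 4.12 in the low group. Under ADR they were 4.53, 5.44 and 7.14 against 3.59, 4.28 and 5.06. The ADR groups overlapped little, and 403 was the highest. The ADR difference was 1.52 ± 0.39 (SE; limma unadjusted p = 0.00145, adjusted p = 0.876) and the response difference 1.33 ± 0.42 (adjusted p = 0.809). Ak1 differed by 0.83 ± 0.33 under ADR and 1.41 ± 0.51 in the response (adjusted p = 0.876 and 0.809), with its largest change, 4.98, in 403.

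Over all genes, the ADR response within the high group called 4191 genes (2248 rose, 1943 fell) and that within the low group 2206 (1083 rose, 1123 fell). Of these, 801 rose in both, 944 fell in both and 0 went opposite ways. The shared genes that rose are 35.6% of the high group's and 74% of the low group's, and the shared genes that fell are 48.6% and 84.1%. The count in the high group was 2358 without 403 and 3594. With the change of the fibroblast marker mean as a covariate, centred over all WT lymphomas, the counts became 2993 and 3859. This fit reads both groups at the same fibroblast change, below the high group's mean of 2.58 and above the low group's of 1.15. The covariate also changes the SE of each gene, and what moved the counts was not tested. Neither count is a response without feeder signal. The gene-by-gene difference between the responses called 0 of 18193 (limma; 1084 at unadjusted p under 0.05).

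Fibroblast markers had the largest median difference of the lists under ADR and in the response, though not on native arrays. The feeder cells are fibroblasts, and the list holds collagens, matrix enzymes and growth factor receptors. Of its 27 measured members of 28, 26 were higher in the high group under ADR, with a median difference of 1.49, and 24 in the response, with a median of 1.74. Unadjusted p was under 0.05 for 19 and 20 of them, against 5.19% and 5.96% of all genes, and none was called. The native median was -0.21. The list mean under ADR ran from 5.69 (5043) to 9.20 (403) in the high group and from 5.08 (1467) to 7.27 (3769) in the low group. The list mean changed by 2.58 ± 1.28 against 1.15 ± 0.89, and most in 403 (4.26) and 5560 (3.93). Col1a1, a collagen chain, was 3.95 and 4.14 native and 7.30 ± 1.76 and 5.29 ± 0.87 under ADR. Within groups, 25 members rose in the high group and 7 in the low group, beside 12.4% and 5.95% of all genes. More fibroblasts and more RNA per fibroblast cannot be told apart in such mixed samples. Without 403 and 3594 the medians were 1.06 and 1.20.

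With that fibroblast covariate the readout responses differed by 0.45 (Cdkn1a), -0.11 (Mdm2) and 0.40 (Phlda3), and none passed. Fibroblasts also express these p53 targets. The part of feeder RNA in Eda2r and Ak1 was not tested.

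Macrophage and monocyte markers (20 of 20 measured) had median differences of 0.00 native, 0.31 under ADR and 0.24 in the response. The ADR median was 0.047 without 403 and 3594, and without the 4 alike lymphomas the native and response medians were 0.24 and 0.048. Within the high and low group 13 and 11 of 20 rose, beside 12.4% and 5.95% of all genes. Neutrophil (12), T cell (13), NK cell (11), erythroid (5) and endothelium (12) markers had medians between -0.07 and 0.01 in all 3 comparisons. The B cell identity of the cultures was checked on the 28 arrays. Blnk was 10.35 to 12.07, Cd79b 9.61 to 11.87, Cd79a 7.28 to 10.81 and Ms4a1 5.44 to 10.73, while Pax5 lay near the array median at 4.65 to 5.34.

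**Figure D3:**
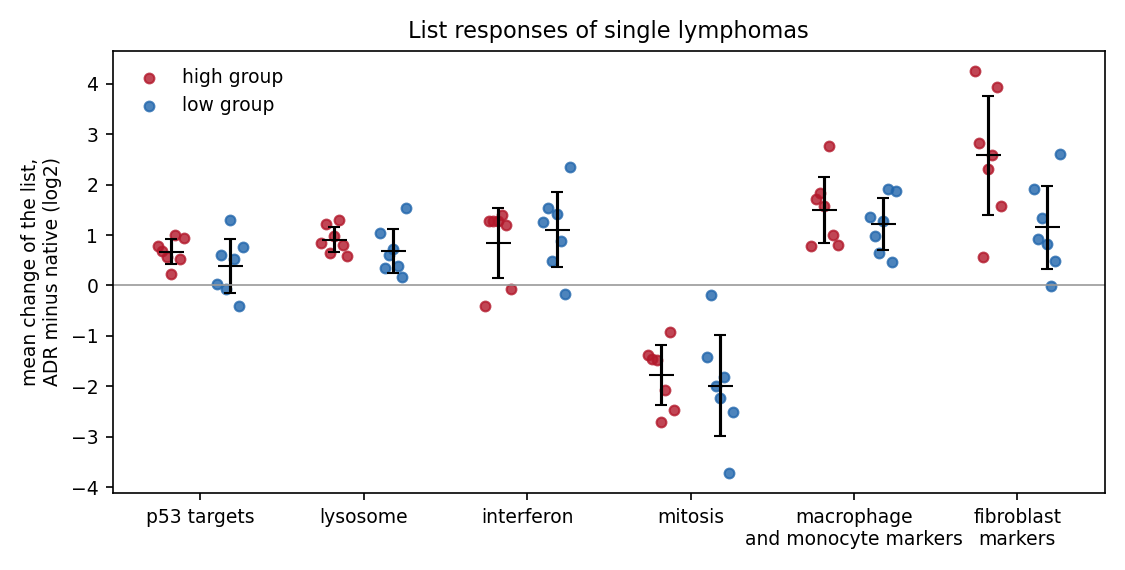
Mean change (ADR minus native, log2) of 6 gene lists in each WT lymphoma, red for the high and blue for the low Cdkn2a group, with mean and SD (n = 7). Fibroblast markers changed by 2.58 ± 1.28 in the high and 1.15 ± 0.89 in the low group, and mitosis genes were lower in every lymphoma.

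The neighbours of Cdkn2a showed no called difference. Cdkn2b encodes p15Ink4b, a further Cdk4 and Cdk6 inhibitor. Its native level was 4.42, 5.21 and 7.13 (lowest, median, highest) in the high group and 4.68, 5.33 and 6.53 in the low group, a difference of 0.01 ± 0.42 (SE). In 403 it was 4.71 and in 3594 it was 5.21, within the range of the other 12. Its response difference was 0.86 ± 0.38 (limma unadjusted p = 0.0395, adjusted p = 0.809). Mtap, an enzyme of methionine salvage, was 7.59, 9.10 and 9.24 native in the high group and 8.09, 9.49 and 9.67 in the low group. The lowest value was that of 3594. Its response differed by 0.73 ± 0.30 (unadjusted p = 0.0283, adjusted p = 0.809), and 403 and 3594 had the largest changes, 2.49 and 1.96. Under ADR Mtap was 11.73 in 403, above the highest of the 12 lymphomas outside the pair (10.73), and 9.55 in 3594. Over 11 measured neighbours the median differences were -0.01, -0.08 and -0.04. In the response 4 of 11 had unadjusted p under 0.05, beside 5.96% of all genes. These were Cdkn2b, Mtap and Mllt3 (1.28 ± 0.56), higher in the high group, and Ifnb1 (-0.41 ± 0.15), lower. Within groups, 2 of 11 rose in the high group and 0 in the low group, beside 12.4% and 5.95% of all genes.

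Genes downstream of p16Ink4a showed no called difference. The Cdk4, Cdk6 and Rb axis list (21 of 21) had medians of 0.07 native, -0.13 under ADR and -0.20 in the response. Ccnd2, cyclin D2, was 5.19, 7.90 and 8.93 native in the high group and 7.42, 8.84 and 9.56 in the low group, lowest in 403. Under ADR its means were 9.79 and 9.49. The native difference was -1.41 ± 0.56 and the response difference 1.71 ± 0.60 (limma adjusted p = 0.9998 and 0.809). Cdk2 differed by 0.32 ± 0.11 native. The 7 CDK inhibitors had medians of 0.01, 0.02 and -0.02. Within groups, 12 genes of the axis fell and 1 rose in the high group, and 7 fell and 0 rose in the low group. Of all genes, 10.7% fell and 12.4% rose in the high group and 6.17% and 5.95% in the low group. Without the 4 alike lymphomas the median of the axis under ADR was -0.30.

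Arf partners, the proteins p19Arf is known to bind, had medians of 0.08, -0.08 and -0.20 over 15 genes. Regulators of the Cdkn2a locus, among them polycomb proteins, E2F factors and Myc, had medians of -0.00, -0.07 and -0.07 over 36 of 37. Myc, the transgene and an inducer of Arf, was 11.19, 11.47 and 12.08 native in the high group and 10.46, 11.20 and 11.48 in the low group. The groups overlapped, and the difference was 0.40 ± 0.17 (limma unadjusted p = 0.0353, adjusted p = 0.9998). Bmi1, a polycomb repressor of the locus, differed by -0.52 ± 0.23 in the response, and Zbtb7a, which represses Arf, by -0.31 ± 0.09 under ADR. Neither passed adjustment. Myc targets and ribosome biogenesis genes were higher in the high group for 28 of 32 native (median 0.17) and lower for 27 of 32 in the response (median -0.31). Without 403 and 3594 these medians were 0.11 and -0.14.

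Proliferation genes fell alike in count. Of 35 measured mitosis genes, 34 fell in the high group and 35 in the low group, and of 33 replication genes 33 and 31 fell, beside 10.7% and 6.17% of all genes. Counts so near all members cannot show a difference in size. The mitosis medians were -0.02 native, 0.15 under ADR and 0.19 in the response, and -0.07, -0.02 and 0.01 without 403 and 3594. The replication medians were -0.01, -0.09 and -0.14, and 0.01, -0.17 and -0.21 without this pair. Without the 4 alike lymphomas the mitosis medians were -0.12, -0.13 and -0.05, so the signs under ADR and in the response turned. Under ADR 8 of 35 mitosis genes were then higher in the high group, against 30 with none left out. Mki67, the proliferation marker, changed by -3.25 to -1.55 in the high group and -4.20 to -0.14 in the low group. Its response difference was -0.01 ± 0.51. Lmnb1, a lamina protein lost in senescence, changed by -1.77 ± 0.77 and -1.47 ± 1.12. DNA damage and repair genes fell for 18 and 17 of 20. H2ax, the histone variant phosphorylated at breaks, differed by 0.59 ± 0.19 native and -0.66 ± 0.26 in the response, with limma adjusted p of 0.9998 and 0.809.

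Lists linked with senescence had no called member. Senescence and nuclear lamina genes (13 measured) had medians of 0.06, 0.11 and 0.19. Secretory factors (38) had -0.11, 0.20 and 0.27. The ADR median was 0.097 without 403 and 3594, and the response median 0.13 without the 4 alike lymphomas. Within groups, 25 of 38 rose in the high and 15 in the low group, beside 12.4% and 5.95% of all genes. Timp2, a matrix inhibitor that the fibroblast list also holds, and Ccl2, a monocyte attractant, had response differences of 1.88 ± 0.71 and 1.72 ± 0.65, and neither passed. NF-kB genes (17) had -0.22, -0.06 and 0.09. Lysosome genes (26) had 0.02, 0.23 and 0.18. Without 403 and 3594 the native and ADR medians were -0.04 and 0.11, and without the 4 alike lymphomas the response median was 0.064. Of the 26, 20 and 14 rose, beside the same 12.4% and 5.95%. Interferon genes (26) had 0.12, -0.17 and -0.29. Without the 4 alike lymphomas these medians were 0.23, -0.61 and -0.86, with 24 of 26 lower both under ADR and in the response. Without 403 and 3594 they were -0.03, -0.16 and -0.14, so the native sign turned. In the high group 10 of 26 interferon genes rose and in the low group 15, beside 12.4% and 5.95% of all genes. For the difference between groups, 0 of them had unadjusted p under 0.05 in each comparison, beside 3.3%, 5.19% and 5.96% of all genes. The Bcl2 family (14) had -0.14, -0.12 and -0.03. Bcl2 itself, supplied by the retrovirus, was 11.12 ± 0.49 and 11.33 ± 0.39 native.

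B cell identity genes (20 measured) had medians of 0.06 native, -0.44 under ADR and -0.40 in the response, lower in the high group for 17 of 20 in the last pair. Cd24a, a surface protein of immature B cells, was 12.72 ± 0.32 and 12.24 ± 0.28 native and 11.12 ± 0.58 and 11.66 ± 0.60 under ADR. Precursor B cell genes (16) had 0.18, -0.06 and -0.21, and plasma cell genes (14) had -0.07, 0.01 and 0.22. No member of any of these lists was called (limma), and 3, 0 and 3 of the 20 B cell identity genes had unadjusted p under 0.05, beside 3.3%, 5.19% and 5.96% of all genes. Without 403 and 3594 the B cell identity medians were -0.26 under ADR and -0.29 in the response. The precursor medians without this pair were 0.30 native and -0.31 in the response. B cell medians were lower where the fibroblast means were higher, and the part of feeder RNA was not tested.

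**Figure D4:**
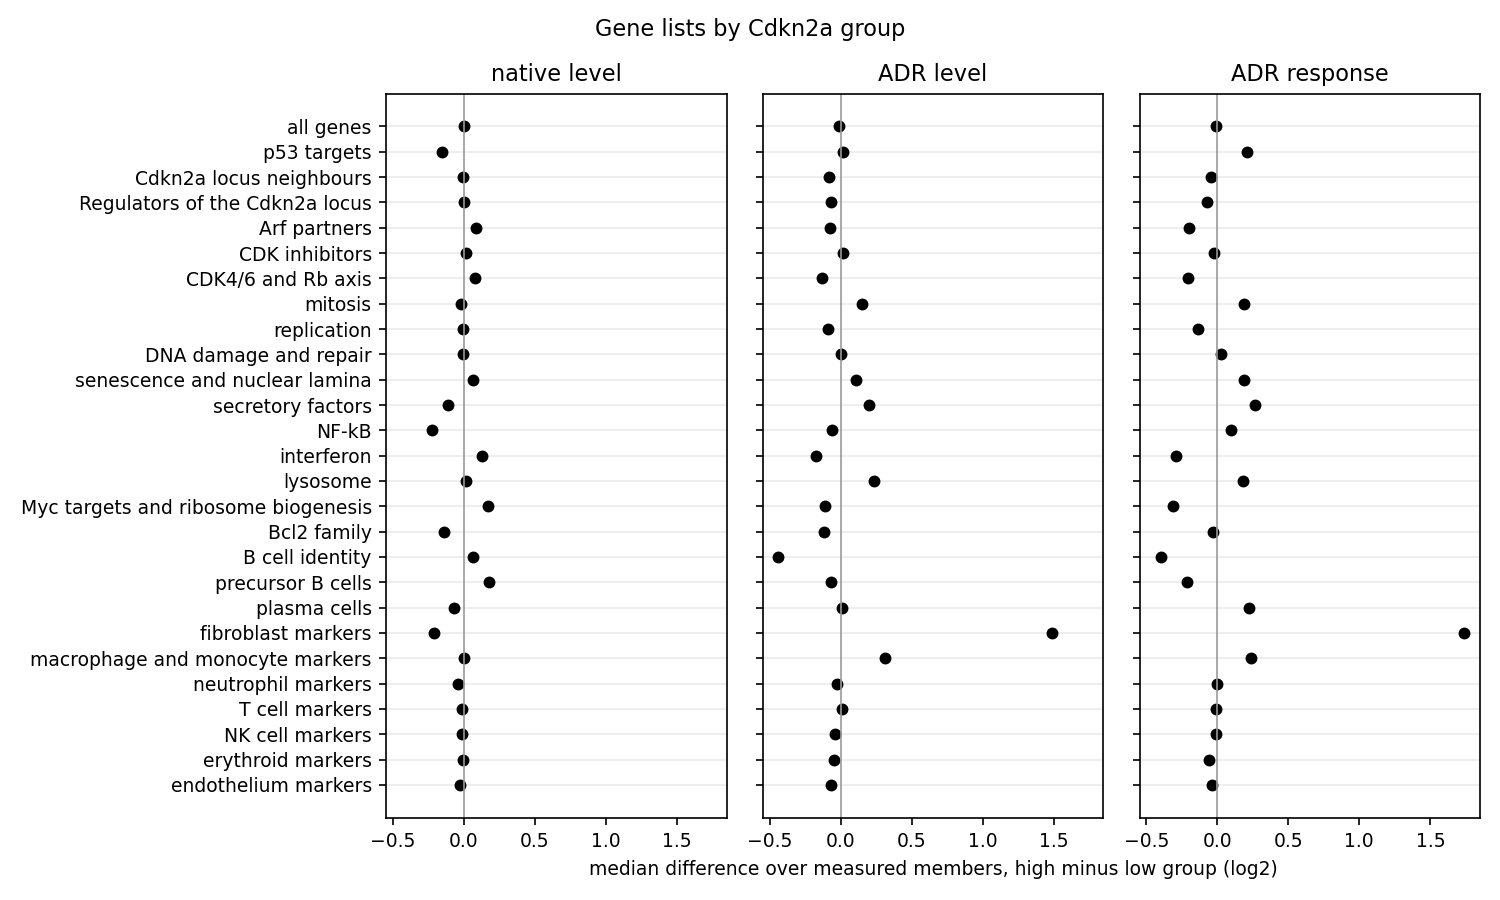
Median high minus low difference (log2) over the measured members of each gene list except the sex genes, for native level, ADR level and ADR response, with all 18193 genes in the top row. Fibroblast markers stand at 1.49 under ADR and 1.74 in the response, and the p53 targets stand at -0.16 native and 0.21 in the response.

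The genes with the smallest p are named although none passed. Native, Crebzf (a bZIP cofactor) differed by 0.53 ± 0.10 and Bach2, a B cell transcription factor, by 0.99 ± 0.22. Among the lower genes were Hspa5 (-0.45 ± 0.13), Hsp90b1 (-0.42 ± 0.10) and P4hb (-0.39 ± 0.11), chaperones and a disulfide isomerase of the endoplasmic reticulum. Hspa5 lay between 11.44 and 12.04 in the high group and 12.04 and 12.83 in the low group, without overlap. Their limma adjusted p was 0.9998. Under ADR, Usp22, a deubiquitinase, differed by 0.50 ± 0.11 and Trip11, a Golgi protein, by -0.54 ± 0.11 (adjusted p = 0.876). In the response, Rhbdf1 differed by 1.40 ± 0.33, Ddr1 (a collagen receptor) by 1.86 ± 0.48, Lgr5 by -1.85 ± 0.45 and Gfi1 (a transcriptional repressor) by -1.64 ± 0.45 (adjusted p = 0.809).

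Comparing only 403 and 3594 with the other 12, a comparison chosen after their values were seen, limma called 5 genes native, 0 under ADR (1991 at unadjusted p under 0.05) and 1 in the response. Gal3st1, a sulfotransferase for galactolipids, was 6.37 and 6.34 in the pair and 3.79 to 5.04 in the others (difference 1.96 ± 0.21, adjusted p = 0.00245). Under ADR its change was -2.12 and -2.19 in the pair and -0.65 to 0.47 in the others. Chn1, Col14a1 and Pdzrn4 were higher by 1.20, 1.55 and 1.01, and Herc2 was lower by 1.03 on the log2 scale. In 403 and 3594 the p53 readouts lay inside the range of the other 12 native and in the response. Their Mdm2 changed by 1.44 and 1.41 and their Phlda3 by 2.33 and 2.17. Cdkn1a in 403 under ADR, 11.05, was just below the lowest of the others, 11.07.

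The native profiles most like Cdkn2a over the 14 lymphomas, by Pearson correlation, were Gal3st1 (0.92), G530011O06Rik (0.92), Eif2s3y (0.91), Ffar4 (0.91) and Zfp503 (0.90). Without 403 and 3594 these were 0.50, 0.63, 0.61, 0.43 and 0.46, so they rest mainly on that pair. On the ADR arrays Snhg14 (0.90), Cilp (0.87), Dcun1d4 (0.85), C630043F03Rik (0.85) and Hnmt (0.85) were most like it, and 0.27, 0.33, 0.37, 0.00 and 0.08 without the pair. The arrays share a platform and normalization, and these values are descriptions.

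Sex-linked genes differed between lymphomas, and of the 4 measured 0 were called between the groups. Their median differences were 0.41 native, 1.025 under ADR and 0.26 in the response, with 3 of 4 higher in the high group. Without 403 and 3594 these medians were 0.09, 0.56 and 0.17. Xist, the RNA of the inactive X chromosome, was 4.19 in 403, 5.58 in 3594, 4.58 in 5560 and 7.15 in 9583 of the high group and 7.17 in 9584 of the low group, while the other 9 lay at 9.93 or above. Y-linked Eif2s3y was 9.02 in 403 and 6.48 in 3594. It averaged 5.20 ± 2.13 and 2.87 ± 0.46 native, a difference of 2.33 ± 0.75 (limma adjusted p = 0.9998). With native Xist as a covariate 0 genes were called in each comparison (limma, 623, 424 and 681 at unadjusted p under 0.05).

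Lymphomas 2949, 5043, 5766 and 6054 had alike arrays across both groups. Over 200 probe sets, arrays of different lymphomas among these 4 correlated at 0.10 to 0.76, with a median of 0.47 (24 pairs). Both arrays of a lymphoma correlated at 0.42 to 0.93 (median 0.83) and other pairs at -0.78 to 0.72 (median -0.10), so the ranges overlap. The probe sets were chosen on the WT lymphomas outside these 4, for differing more between lymphomas than between native and ADR arrays. High values within a lymphoma and low values between lymphomas are thus partly built in. Over all probe sets, the native and ADR arrays correlated above 0.1 in 10 of 14 lymphomas. The 4 lymphomas were picked for being alike. They lie on both sides of the boundary. Without these 4 the readout responses differed by 0.42 (Cdkn1a), -0.38 (Mdm2) and 0.55 (Phlda3), and limma called 0 genes (848, 1447 and 1531 at unadjusted p under 0.05 native, under ADR and in the response).

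In the other genotypes Cdkn2a ran both higher and lower than in the WT lymphomas. Suv39h1- lymphoma 4936 had 9.83 native and 9.63 under ADR, and its Cdkn1a went from 8.39 to 8.90 and its Mdm2 from 8.96 to 8.68. Suv39h1- lymphoma 1032 had 2.70 and 2.44, with Cdkn1a at 11.58 and 11.85. Suv39h1- lymphoma 5783 had 7.82 native with Cdkn1a at 11.08. Lymphomas 9250 (5.99) and 7890 (4.29) had native Cdkn1a of 9.71 and 8.87. Cdkn2a of Suv39h1ER culture SuvER-4146 was 6.57 native, 7.22 with ADR and 7.20 with ADR plus 4OHT. In the same order, SuvER-4936 had 2.70, 11.77 and 5.57, and its Cdkn1a was 11.12, 9.59 and 11.77. SuvER-5043 had 4.66, 4.19 and 2.36. All WT lymphomas other than 403 and 3594 thus lay below the native levels of 5783, 4936 (Suv39h1-), 9250, SuvER-4146 and SuvER-5043. The native levels of 1032 and SuvER-4936, both 2.70, lay below every WT lymphoma, and that of 7890 (4.29) lay among them.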

How the data were processed

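RNA of 28 WT arrays was analysed. The submitters' processing notes name RMA, oligo and R 3.5.0 for the deposited log2 levels of 45101 probe sets (0.31 to 15.0). Each of 18194 genes was represented by its brightest probe set over 47 arrays, with no filter on dim genes. RMA brings arrays to one distribution and compresses differences of dim probe sets such as Cdkn2a. The number of arrays limits the precision. Differences were fitted with limma 3.58.1 in R 4.3.3 (data.table, version 1.17.8), checked on simulated data, two-sided, with calls at an adjusted p (Benjamini-Hochberg) under 0.05. Cdkn2a was left out of the fits, leaving 18193 genes. Responses were paired by lymphoma, per the series' matched pairs (10 of 14 pairs correlated above 0.1). A total of 27 lists with 537 measured members were used. Members, lists and the rule for named genes (10 set genes, the smallest p-values per comparison, 3 per list) were chosen with earlier results of these data known.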

Additional observations from a re-analysis of the deposited data

Results flagged for a closer look

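Of 84 groups of native, ADR or response values, 4 had a lymphoma far from the rest by Dixon's test, which flags about 1 in 20 by chance. Native Mtap in the high group was lowest in lymphoma 3594, at 7.59 with the next value at 8.87. Native Mtap in the low group was lowest in 1467, at 8.09 with the next at 9.02. Native Bcl2 in the high group was highest in 5766, at 12.11 with the next at 11.22. Native Mki67 in the high group was lowest in 5560, at 9.88 with the next at 10.75.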

How the results depend on the processing

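Without a lymphoma in turn, 0 genes were called in the native, ADR and response comparisons, 3085 to 4237 within the high group and 1326 to 2277 within the low group (1326 without 3769). The ranges were -0.64 to -0.24 (Cdkn1a), -0.29 to 0.030 (Mdm2) and -0.60 to -0.21 (Phlda3) native, -0.096 to 0.095, -0.11 to 0.18 and 0.074 to 0.40 under ADR, and 0.24 to 0.73, -0.13 to 0.43 and 0.48 to 0.98 in the response. The causes of these changes were not tested.

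Settings that turned a sign were these. Cdkn1a under ADR, close to 0, became 0.052 without 2949, 5043, 5766 and 6054, 0.018 after quantile normalization, 0.086 with array weights, 0.17 with the fibroblast covariate, 0.16 without 403 and 3594, 0.020 with alike lymphomas averaged within each group and 0.12 with Xist as covariate. Mdm2 under ADR became 0.0049 after quantile normalization and 0.0041 without 403 and 3594. Mdm2 became 0.10 native without the 4 alike lymphomas. Its response became -0.38 without these 4, -0.11 with the fibroblast covariate, -0.065 with alike lymphomas averaged and -0.12 with Xist. Phlda3 under ADR became -0.053 per SD of Cdkn2a as a continuous covariate and -0.11 for 403 and 3594 against the other 12.

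Counts also moved. Native calls were 18 with continuous Cdkn2a and 5 for 403 and 3594 against the other 12, which gave 1 response call. With continuous Cdkn2a, 1548, 2911 and 2357 genes had unadjusted p under 0.05 native, under ADR and in the response. Cdkn1a under ADR was then -0.19 per SD of Cdkn2a (limma unadjusted p = 0.0437, adjusted p = 0.30). The lowest value of Cdkn1a under ADR over all settings was -0.49. Within the high group 7633 probe sets were called when tested singly and 2358 genes without 403 and 3594. Within the low group 3808 probe sets were called singly and 3859 genes with the fibroblast covariate. Without the replicate block (unpaired arrays) 3803 and 1786 genes were called within the high and low group, against 4191 and 2206 with it. The response difference again had 0 calls. Its Cdkn1a value was again 0.45, which balanced pairs fix in advance. No readout passed adjustment under any setting run. The mean over all Cdkn2a probe sets equals the single one, and averaging the 4 alike lymphomas into a majority group was not run because they lie evenly in both. Neither scan dates nor detection calls were used.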
